A study of Mus musculus with 10 samples.

Results

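The genes described here encode the subunits of the mitochondrial respiratory chain and ATP synthase. They are the protein-coding mouse genes whose symbols mark them as subunits of complexes I to V (Nduf, Sdh, Uqcr, Cox4 to Cox8 and Atp5) together with those encoded on mitochondrial DNA. The rule found 97 of the 46517 genes in the count tables: 84 encoded in the nucleus and 13 on mitochondrial DNA. The nuclear genes divide by symbol into 37 of complex I, 4 of complex II and 8 of complex III. A further 18 are of complex IV and 17 of complex V. The mitochondrial ones divide into 7, 0, 1, 3 and 2. Every Nduf symbol was put under complex I, Ndufa4 and its paralogue Ndufa4l2 included, so counts by complex follow the symbol. No measured value entered the rule.

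Complexes I to IV pass electrons from NADH and succinate to oxygen and, at complexes I, III and IV, move protons across the inner mitochondrial membrane. Complex V, the ATP synthase, uses the return flow of protons to make ATP. Complex II is encoded wholly in the nucleus, whereas each of the other 4 complexes combines nuclear and mitochondrial products, so that transcripts made in separate compartments by separate RNA polymerases serve the same enzyme.

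RNA came from malignant peripheral nerve sheath tumours (MPNST), sarcomas of the nerve sheath, grown as allografts in mice. There were 5 tumour models, named A to E, and from each the GFP+ and the GFP- fraction was sequenced as 1 library apiece. GFP+ cells express a transgene named CGD and GFP- cells from the same model do not. All 10 libraries are of sorted tumour cells, after wild-type and dead cells had been gated out. Neither the genotype of the models nor the promoter behind the transgene is stated in the labels. The age of the hosts and the number of animals behind a model are not stated either. The p-values are set against the spread of the GFP+ minus GFP- differences over these 5 models and describe no more than these models. The libraries held 15978673 to 22082207 reads assigned to genes.

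Marker genes of leucocytes, endothelium, muscle and blood were low. Genes listed as fibroblast and mesenchyme markers were high, at 16151 to 31421 CPM summed over 5 genes. Whether the tumour cells themselves or other cells made this RNA cannot be told from these values. Summed over 9 genes, leucocyte markers ranged from 7.82 to 22.0 CPM (a gene's reads scaled to the total of all gene reads in its library), 5 endothelial genes from 0.271 to 3.32 CPM, 7 skeletal muscle genes from 0.771 to 11.9 CPM and 5 erythroid genes from 0 to 1.19 CPM, with Alas2, Hbb-bt and Hba-a2 at 0 throughout. Summed Schwann lineage markers (6 genes) were 58.8 to 296 CPM in GFP+ and 16.3 to 105 CPM in GFP- libraries and were higher in GFP+ cells in 5 of 5 pairs. In bulk RNA of this kind, fewer cells of a type and less RNA per cell cannot be told apart.

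Of the mitochondrial genes, 7 were counted at 43 reads or more in each library, and the other 6 were at or near 0 reads in every library. These 6 (mt-Co2, mt-Atp8, mt-Atp6, mt-Co3, mt-Nd3 and mt-Nd4l) lie next to one another on the mitochondrial genome and had 6, 2, 8, 5, 0 and 1 reads in all 10 libraries together. A count of 0 allows up to 0.136 to 0.188 CPM per library (3 reads), a limit that covers counting error only. The tables hold reads with several genomic positions in a line of their own (5.99% to 9.74% of all reads), and a stretch of chromosome 1 carries a nuclear copy of this part of mitochondrial DNA. The first 120 bases of mt-Co2, which encodes a catalytic subunit of cytochrome c oxidase, are shown because the chromosome 1 copy, the annotated gene Gm28661 on the minus strand, has the same 120 bases. For mt-Nd3 and its copy Gm28438 the base that differs is in capitals. All are printed 5′ to 3′ from the GENCODE transcripts (GRCm38), mt-Co2 from chrM:7013-7132, mt-Nd3 from chrM:9459-9578 and Gm28438 from chr1:24613000-24613119.
mt-Co2: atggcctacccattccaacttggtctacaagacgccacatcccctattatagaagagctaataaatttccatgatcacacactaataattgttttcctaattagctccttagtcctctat
mt-Nd3: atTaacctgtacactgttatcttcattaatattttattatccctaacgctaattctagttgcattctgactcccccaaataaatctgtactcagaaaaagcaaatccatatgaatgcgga
Gm28438: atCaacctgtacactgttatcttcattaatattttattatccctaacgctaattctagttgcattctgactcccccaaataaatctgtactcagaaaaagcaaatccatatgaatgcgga

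Over their full length the copies stayed close. Gm28661 matched mt-Co2 at 681 of 681 bases compared, Gm10925 matched mt-Atp6 with 0 mismatches in 678, Gm28437 matched mt-Co3 with 0 in 783, and Gm10222 matched mt-Nd4l with 0 in 294. Gm28438 differed from mt-Nd3 at 1 of 345 bases, and it was the only one of the 7 copies with more than 12 reads in any library: 39 to 92 reads, while mt-Nd3 itself had 0. Since reads that match several places are not in the gene counts, no level is given for these 6 genes; the share of their reads that was set aside in this way was not tested. Every stretch of 50 bases of each member was searched in annotated transcripts of other loci (read length: not given in the sources used here). Shared stretches made up 100% of mt-Co2, 99.9% of mt-Co3, 99.5% of mt-Atp6, 98.8% of mt-Nd4l and 98.0% of mt-Nd3. They made up 62.2% of mt-Nd4, 51.1% of mt-Co1, 8.19% of mt-Nd2 and 7.61% of mt-Nd5, and 0% of mt-Nd1, mt-Cytb and mt-Nd6. For mt-Atp8 the share was also 0% in annotated transcripts, although the gene lies within the same interval; sequence between annotated genes was not searched.

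**Figure D1:**
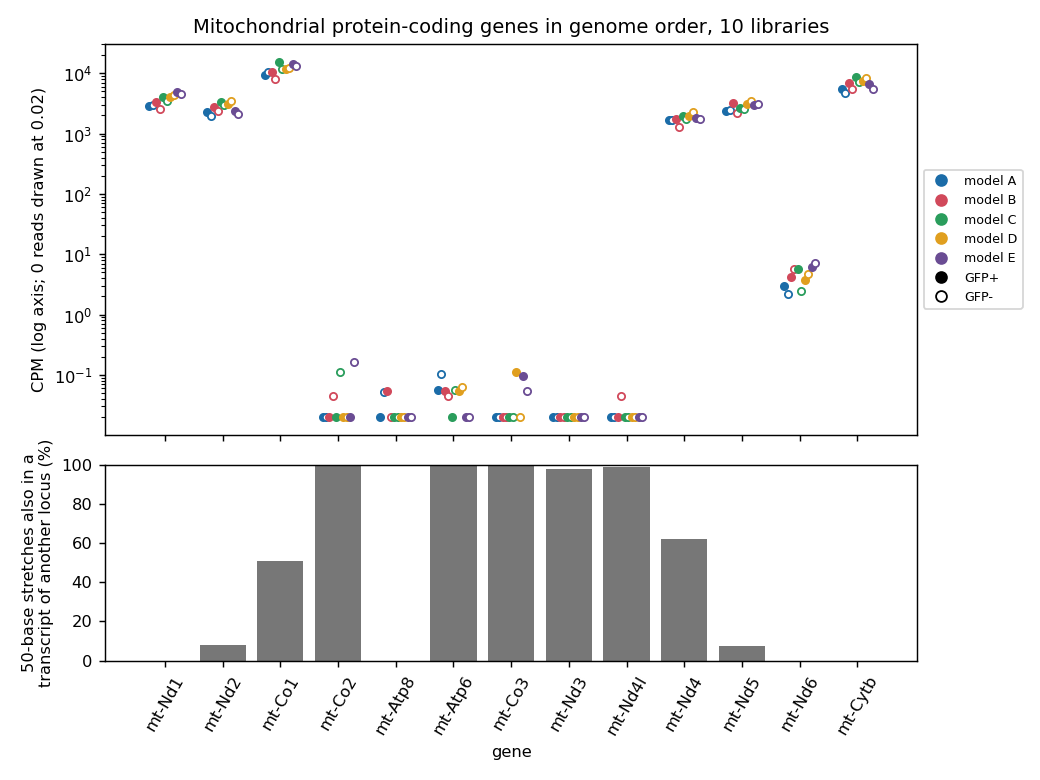
Upper panel: CPM on a log axis for each mitochondrial protein-coding gene in genome order, 1 point per library, filled for GFP+ and open for GFP-, with 0 reads drawn at 0.02. Lower panel: percent of each gene's 50-base stretches that also occur in an annotated transcript of another locus; the 6 adjacent genes near 0 in the upper panel include 5 with shares of 98.0% or more.

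Per length, 6 of the 7 counted mitochondrial transcripts were above every nuclear member. Per kilobase of exon, as a mean over 10 libraries, mt-Co1, the core subunit of cytochrome c oxidase, was at 7574 CPM, mt-Cytb, the mitochondrial subunit of complex III, at 5757, mt-Nd1 at 3856, mt-Nd2 at 2594, mt-Nd5 at 1543 and mt-Nd4 at 1298. Counted only over the stretches no other annotated transcript shares, mt-Co1 was at 16008 CPM per 1000 stretches, mt-Nd4 at 3563 and mt-Nd5 at 1716, so that mt-Nd4 stood below mt-Nd5 on the first scale and above it on the second. The lowest of the 7 was mt-Nd6, the complex I subunit encoded on the light strand, at 8.63 CPM per kilobase (43 to 132 reads per library).

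The 13 mitochondrial genes together took 2.41%, 2.85%, 3.61%, 3.12% and 3.29% of the gene reads in the GFP+ libraries of models A to E, and 2.43%, 2.19%, 2.95%, 3.40% and 3.01% in the GFP- libraries. The means were 3.06% ± 0.45 and 2.798% ± 0.48 (SD, n = 5 each), and the groups overlapped. The pair differences averaged 0.26 percentage points ± 0.42 (SD, n = 5), with GFP+ higher in 3 of 5 pairs, so the mean difference was smaller than its spread. These shares do not include the 6 uncounted transcripts.

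Among nuclear members, levels per length ranged from 0.75 to 198 CPM per kilobase in the genes that passed the filter on low counts. The highest of each complex were Ndufa8 of complex I (69.1), Sdhd, a membrane anchor of succinate dehydrogenase (49.2), Uqcrh, the hinge protein of complex III (88.7), Cox6a1 of complex IV (198) and Atp5a1, the alpha subunit of the ATP synthase (191). The lowest were Ndufb2 (1.12), Sdhc (18.2), Uqcrq (19.0), Cox4i2 (1.90) and Atp5l (0.75). Lengths were those of all annotated exons merged, 6443 bases for Atp5l and 5628 for Ndufb2, so long annotated transcripts place a gene lower. Of 84 nuclear members, 44 share no 50-base stretch with another annotated locus and 11 share over 10%, with Atp5g2 highest at 36.7%, so the counts of those 11 are uncertain. They include Atp5h (19.9%), Ndufb4 (18.3%), Ndufa12 (17.7%), Cox7a2l (13.8%) and Atp5g1 (11.1%), which are described among the results. Shares were taken over all annotated transcripts of a gene, so Atp5l, with 566 of 6487 stretches shared, falls under 10%.

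Where complex IV has isoforms, the widely expressed one was the higher one per length. Cox6a2, Cox7a1 and Cox8b, the forms of heart and skeletal muscle, had 5, 42 and 2 reads in all libraries, against 198 CPM per kilobase for Cox6a1, 55.0 for Cox7a2 and 177 for Cox8a. Cox7b2 and Cox8c had 1 and 0 reads. Per kilobase, Cox6b1 was at 132 CPM and Cox6b2, the testis form, at 2.47, and Cox4i1 was at 106 and Cox4i2 at 1.90. Ndufa4 was at 34.2 CPM per kilobase and its paralogue Ndufa4l2 at 8.55, with a spread between models given with the model comparison. The genes Atp5g1, Atp5g2 and Atp5g3 encode the same mature c subunit of the ATP synthase, and were at 6.54, 13.1 and 44.6 CPM per kilobase. Their merged exons were 4912, 1675 and 2181 bases long, which enters this order. In all, 86 of 97 members (79 nuclear, 7 mitochondrial) passed the filter and were tested; the 11 others are the 6 adjacent mitochondrial genes and Cox6a2, Cox7a1, Cox7b2, Cox8b and Cox8c.

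The start sites of nuclear members were described because many such genes are known to be controlled by NRF1, by ETS-family factors such as GABP, and by YY1. RefSeq windows of 250 bases before to 50 after a start (GRCm38.p6) were found for 66 of 84. On either strand, the NRF1 motif GCGC, any base, TGCGC was in the windows of 17 members (25.8%, against 5.19% of 27025 genes), the ETS motif CCGGAAG in 16 (24.2%, against 9.93%) and the YY1 motif AAGATGGC in 9 (13.6%, against 3.19%), and 36 members held at least 1 of them. These are matches of letters and not measured binding. The 27025 genes are all those with a window, expressed or not, and no comparison with expressed genes alone was made. Both the NRF1 and the ETS motif were found for Atp5h, Atp5k, Cox6a1 and Sdhd. The 250 bases before the start are shown for Atp5h, the member with the smallest p between tumour models, and for Cox6a1, the highest nuclear member per length, with the matches to both motifs in capitals (minus strand, chr11:115419920-115420169 and chr5:115348959-115349208).
Atp5h: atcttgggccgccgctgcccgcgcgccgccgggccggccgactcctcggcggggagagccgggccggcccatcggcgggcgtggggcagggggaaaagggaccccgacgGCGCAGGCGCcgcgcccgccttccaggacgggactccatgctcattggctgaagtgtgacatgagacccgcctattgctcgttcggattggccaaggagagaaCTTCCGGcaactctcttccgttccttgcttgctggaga
Cox6a1: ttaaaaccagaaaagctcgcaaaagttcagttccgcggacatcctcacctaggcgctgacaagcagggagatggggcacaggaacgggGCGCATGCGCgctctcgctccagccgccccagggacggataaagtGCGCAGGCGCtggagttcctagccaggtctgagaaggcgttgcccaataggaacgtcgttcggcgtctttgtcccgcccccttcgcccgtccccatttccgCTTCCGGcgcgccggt

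GFP+ and GFP- cells were compared within tumour models, the paired comparison that the study states as its purpose. No member was called: 0 of 86 had an adjusted p under 0.05 in edgeR's quasi-likelihood test with the tumour model as a block, and 0 of all 13986 genes tested did (0%). DESeq2 called 195 of all genes and limma voom 0, and each called 0 members. At an unadjusted p under 0.05 there were 0 of 86 members, against 8.99% of all genes (5.5% higher and 3.49% lower in GFP+). The members' differences were small: the median absolute log2 difference was 0.055, against 0.116 over all genes, and the median was -0.03 for the 79 nuclear and 0.07 for the 7 mitochondrial members, against -0.003 for all genes. By direction, 24 nuclear members were higher and 55 lower, and all 7 mitochondrial ones were higher. With library totals in place of TMM scaling the nuclear median was 0.002, on the other side of 0, while that of all genes moved to 0.03.

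The nuclear members with the smallest p were all lower in GFP+ cells and none passed. Atp5j, a coupling subunit of the ATP synthase (chr16:84827866-84835625), was at 62.1, 44.9, 73.1, 55.1 and 73.9 CPM in GFP+ cells of models A to E and at 75.8, 64.2, 70.7, 65.7 and 73.0 CPM in GFP- cells. GFP+ cells were lower in models A, B and D and slightly higher in C and E, the groups overlapped, and the log2 difference was -0.23 (SE 0.11, edgeR adjusted p = 0.578). Sdhc, the other membrane anchor of complex II (chr1:171127165-171150603), was at 55.0, 61.3, 55.0, 62.3 and 52.6 CPM in GFP+ and 66.0, 61.7, 56.9, 64.3 and 55.3 CPM in GFP- cells. It was lower in 5 of 5 pairs, by log2 differences of -0.29, -0.08, -0.07, -0.10 and -0.06 (edgeR log2 difference -0.12, SE 0.07, adjusted p = 0.651). It was the only member with 1 direction in all pairs, 1 of 86, where 9.77% of all genes had one. Sdha, the flavoprotein subunit of the same complex, gave -0.17 (SE 0.10) and Atp5o, the stalk subunit that joins the 2 parts of the ATP synthase, -0.20 (SE 0.10).

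Cox4i2, an isoform of complex IV subunit 4 known from lung and as a gene that responds to low oxygen, had the largest fitted difference and the fewest reads. It had 5, 6, 1, 20 and 63 reads in GFP+ cells of models A to E and 7, 90, 0, 32 and 69 reads in GFP- cells. The difference of -1.18 on the log2 scale (SE 0.59, edgeR adjusted p = 0.598) rests mostly on model B, where the pair differed by -3.35. Ndufb4, Ndufs7, Cox7a2l, Ndufa8 and Ndufa12 gave log2 differences of -0.38, -0.13, -0.13, -0.11 and -0.15, with adjusted p from 0.626 to 0.731.

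The 7 mitochondrial members were all slightly higher in GFP+ cells on average and none passed the test. mt-Cytb was at 5439, 7014, 8667, 7299 and 6563 CPM in GFP+ cells and 4667, 5466, 7059, 8241 and 5445 CPM in GFP- cells, higher in 4 of 5 pairs, with a log2 difference of 0.16 (SE 0.15, edgeR adjusted p = 0.801). mt-Co1 was at 12284 ± 2536 and 11120 ± 1979 CPM (SD, n = 5 each). Log2 differences were 0.11 for mt-Co1 (SE 0.17), 0.09 for mt-Nd2 (SE 0.12), 0.06 for mt-Nd1 (SE 0.13), 0.07 for mt-Nd4 (SE 0.12), 0.03 for mt-Nd5 (SE 0.14) and 0.07 for mt-Nd6 (SE 0.28). Leaving out 1 model put mt-Nd4 (without B, -0.0011), mt-Nd5 (without B, -0.07) and mt-Nd6 (without A, -0.01, and without C, -0.20) on the other side of 0.

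Single pairs went in opposite directions. In pair A, 76 of 79 nuclear members were lower in GFP+ cells (96.2%, where 50.4% of all genes were), with a median log2 difference of -0.43, quartiles of -0.52 and -0.26, and 62 members lower by over 0.25 (22.3% of all genes were). The exceptions were at low levels: Ndufb2 (6.50 CPM in GFP+ and 4.52 in GFP- cells), Atp5s (6.95 and 5.55 CPM) and Cox6b2 (9 and 7 reads). The lower levels were seen in each complex: 36 of 37 members of complex I were lower, 4 of 4 of complex II, 8 of 8 of complex III, 12 of 13 of complex IV and 16 of 17 of complex V. Among them, Sdha was at 146 CPM in the GFP+ and 202 CPM in the GFP- library, Atp5d, the delta subunit of the ATP synthase, at 133 and 205, Uqcrh at 70.7 and 102, and Cox4i1 at 146 and 199. With 1 library of each population per model, a single pair has no replicate and no test.

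In pair D the nuclear and mitochondrial members moved apart. There 62 of 79 nuclear members were higher in GFP+ cells (50.4% of all genes were; median 0.17), and 7 of 7 mitochondrial members were lower (49.6% of all genes were; median -0.21). In pair B, 55 nuclear members (52.6% of all genes) and 6 mitochondrial members were higher, with medians of 0.09 and 0.29. In pair C, 41 nuclear (48.6% of all genes; median 0.00) and 7 of 7 mitochondrial members were higher (median 0.16), and in pair E 36 nuclear (50.1% of all genes; median -0.02) and 5 mitochondrial members (median 0.12). In pair A, 3 of 7 mitochondrial members were higher (median -0.02), beside the near-uniform nuclear shift. Members counted within a pair come from the same GFP+ and GFP- library, so they are not separate observations. Without model A the median log2 difference of the nuclear members was 0.06 in place of -0.03.

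**Figure D2:**
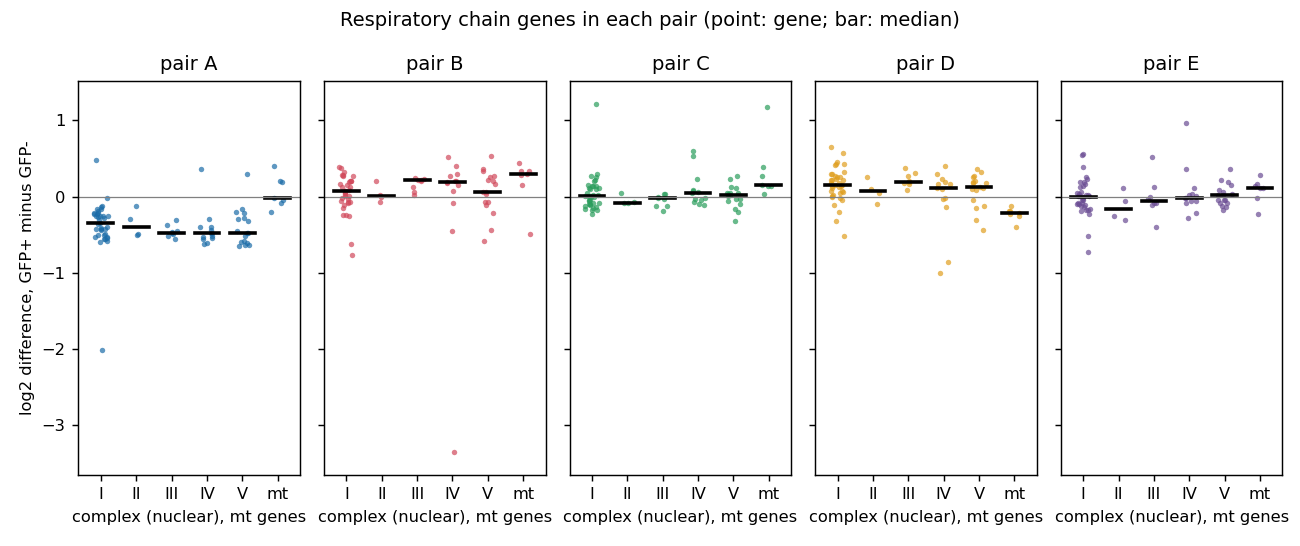
Log2 difference, GFP+ minus GFP-, of the 86 tested members in each of the 5 pairs; points are genes, grouped as nuclear members of complexes I to V and mitochondrial (mt) genes, and bars are medians. In pair A nearly all nuclear members lie below 0 (76 of 79), and in pair D the 7 mitochondrial genes lie below 0 while most nuclear ones lie above.

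Summed over the 84 nuclear members, the GFP+ libraries of models A to E reached 4597, 4997, 5734, 5616 and 7058 CPM and the GFP- libraries 6242, 4345, 5742, 4843 and 7308 CPM. The means were 5600 ± 937 and 5696 ± 1167 CPM (SD, n = 5 each), and the groups overlapped. The mean log2 ratio was -0.02 ± 0.27 (SD, n = 5 pairs), and 0.09 without model A. The spread between models was larger than that between populations, with both libraries of model E above the other 8.

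**Figure D3:**
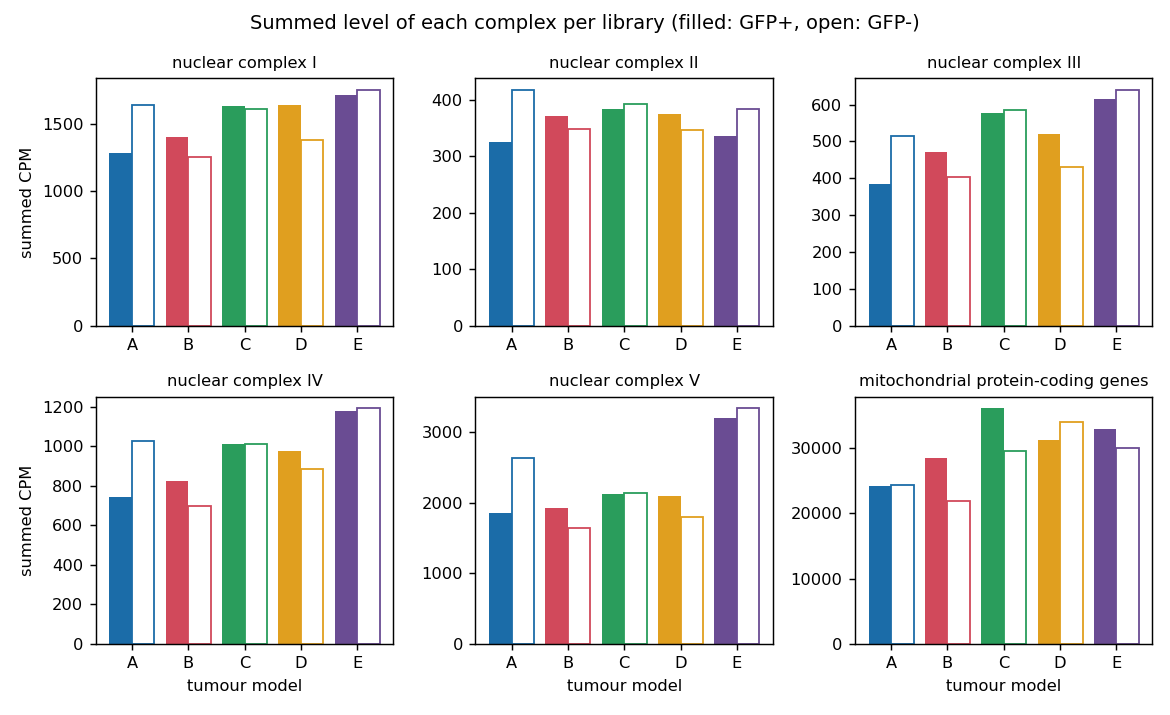
Summed CPM of the nuclear members of each complex and of the mitochondrial protein-coding genes in each library; filled bars are GFP+ and open bars GFP- cells of models A to E, 1 library per bar. The GFP+ bar is the lower one for all 5 nuclear complexes in model A, and complex V is highest in model E (3209 and 3342 CPM).

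Marker sums also differed within pairs. In pair A the summed leucocyte markers were 14.9 CPM in the GFP+ and 22.0 CPM in the GFP- library, 5 fibroblast and mesenchyme genes summed to 29091 and 21456 CPM, and 8 dissociation and stress genes to 12492 and 9237 CPM. The 2 mitochondrial rRNA genes summed to 412 and 842 CPM, a log2 ratio of -1.03. In pair D, where the nuclear members were mostly higher, all 3 marker sums were lower in the GFP+ library: leucocyte 12.0 against 21.7, fibroblast and mesenchyme 23218 against 31421, and dissociation and stress 8268 against 15568 CPM. The stress sum was also higher in the GFP+ library in pair B (9598 against 5170 CPM) and pair E (15352 against 8863 CPM), where the nuclear members were mostly higher or nearly even, and lower in pair C (4978 against 7157 CPM). The stress sum and most nuclear members thus went opposite ways in pairs A and D and the same way in pair B. The part of these values in the members' differences was not tested.

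Genes that build or feed the chain were mostly lower in pair A as well. There, 68 of 77 mitochondrial ribosomal protein genes were lower in GFP+ cells (median -0.29), as were 16 of 18 genes of pyruvate dehydrogenase and the citric acid cycle (-0.38), 30 of 33 of mitochondrial DNA maintenance, transcription and RNA processing (-0.18), and 7 of 7 subunits and carriers outside the rule, such as Cycs and Cyc1 (-0.34). Assembly factors were lower in 10 of 14 cases for complex I, 7 of 10 for complexes II and III, 12 of 18 for complex IV and 4 of 4 for complex V. Regulators of mitochondrial biogenesis did not share the shift: 4 of 9 were lower (median 0.02). In pair D, 61 of 77 mitochondrial ribosomal protein genes (median 0.14) and 14 of 18 of the citric acid cycle list (median 0.15) were higher, but 11 of 18 assembly factors of complex IV were lower (median -0.04). In pair E, where the nuclear members were nearly even, 12 of 14 assembly factors of complex I, 15 of 18 genes of the citric acid cycle list and 25 of 33 of the mitochondrial DNA list were lower (medians -0.15, -0.11 and -0.15).

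Over the 5 pairs, 0 genes of these lists passed the edgeR test. At an unadjusted p under 0.05 there were 5 of 193, or 2.59%, all lower in GFP+ cells, where 3.49% of all genes were lower at that p, so the share is no larger than the background. Each of the 5 was lower in 5 of 5 pairs: Ndufaf8, an assembly factor of complex I (log2 -0.39, SE 0.16), Bcs1l, which inserts the Rieske protein into complex III (-0.22, SE 0.10), Mrpl40 (-0.27, SE 0.10) and Mrpl39 (-0.21, SE 0.08) of the mitochondrial ribosome, and Gabpa. Gabpa, the DNA-binding subunit of the ETS-family factor GABP, was at 92.0, 62.9, 84.9, 65.2 and 81.7 CPM in GFP+ and 106, 78.7, 87.6, 81.2 and 101 CPM in GFP- cells of models A to E, and the groups overlapped. Its log2 difference was -0.27 (SE 0.07, edgeR unadjusted p = 0.00763, adjusted p = 0.393). Nrf1 was between 33.6 and 40.7 CPM in all libraries, and the coactivator Ppargc1a between 0.705 and 6.20 CPM.

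More members differed between tumour models than between populations. In the same fit, 30 of 86 members had an adjusted p under 0.05 in edgeR's test of the 4 model coefficients (34.9%), where 54.7% of all genes did. The 30 are nuclear, 30 of 79 (38.0%), and 0 of 7 mitochondrial members were called; the smallest adjusted p of these was 0.0555, for mt-Nd1. The test sets the models against the spread of the GFP+ and GFP- libraries within a model, so it describes these 5 models. By complex, 14 of 37 members of complex I were called, 0 of 4 of complex II, 2 of 8 of complex III, 7 of 13 of complex IV and 7 of 17 of complex V. Ndufa4l2, placed under complex I by its symbol, is among the 14. On TMM-scaled log2 CPM, the ratio of the highest to the lowest model had a median of 1.58 over the nuclear members and of 1.92 over all genes. Without model E 17 members were called, 17 of them among the 30, and without model C 19, 19 of them among the 30. Over all genes the calls fell as well, to 5404 of 14140 without model E and 4038 of 14115 without model C.

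The flattest complex across models was complex II, with a median ratio of highest to lowest model of 1.16 on TMM-scaled log2 CPM. On unscaled CPM, Sdha had a ratio of 1.16, Sdhb, the iron-sulphur subunit, 1.16, Sdhc 1.17 and Sdhd 1.40. This is a description of 4 genes and was not tested against the other complexes.

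The smallest p between models belonged to Atp5h, a stalk subunit of the ATP synthase whose promoter is printed above (chr11:115415689-115419962, edgeR adjusted p = 0.00046). It was at 182 and 200 CPM in GFP+ and GFP- cells of model C, and at 57.5 and 63.2 for model A, 58.7 and 54.0 for B, 69.0 and 68.8 for D, and 72.8 and 63.1 for E. Model C stood apart in both populations, 3.39-fold above the lowest model, and without model C the adjusted p was 0.226. Atp5h and Cox7a2l are among the members with uncertain counts.

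Cox7a2l, which takes part in joining complexes III and IV into supercomplexes (chr17:83501918-83517330), was at 125 and 129 CPM in model C and 103 and 108 in E, against 70.8 and 75.2 in D, 55.6 and 50.5 in B, and 39.2 and 53.6 in A (edgeR adjusted p = 0.00121). Both libraries of C and of E were above all those of the other models. How many of all genes were so placed was not counted. Cox4i1, the common isoform of complex IV subunit 4 (chr8:120668222-120674207), was at 84.5 and 60.8 CPM in model B and between 146 and 218 CPM in the 8 other libraries (edgeR adjusted p = 0.00383, and 0.054 without model B).

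Ndufs7, a core iron-sulphur subunit of complex I, Uqcr11 of complex III and Atp5d lie within 1 stretch of chromosome 10 (80138632 to 80406830) and were all high in models C and E. Ndufs7 was at 56.1 and 62.4 CPM in C and 52.9 and 52.9 in E, and between 26.8 and 36.4 in the other libraries (edgeR adjusted p = 0.0017). Uqcr11 was at 58.9 and 65.9 in C and 77.1 and 84.2 in E, and between 26.5 and 40.8 elsewhere (edgeR adjusted p = 0.0029). Atp5d was at 255 and 290 in C and 316 and 307 in E, and between 128 and 205 elsewhere (edgeR adjusted p = 0.00466). For these 3 genes, picked by their small p between models, the libraries of models C and E did not overlap with the rest. The share of all genes so placed was not counted. Atp5f1, another stalk subunit of the ATP synthase, and Ndufb5, both on chromosome 3, were higher in models A and E than in B, C and D (edgeR adjusted p = 0.00358 and 0.00633).

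The members with the widest range were isoforms that, as means over 10 libraries, were lower per length than their partners. Ndufa4l2, known as a target of hypoxia-inducible factor and a partner of Ndufa4, had 215 and 931 reads in GFP+ and GFP- cells of model A, 330 and 200 in E, 43 and 36 in D, 19 and 24 in B, and 5 and 1 in C. Its model means ran from 0.16 to 29.9 CPM, a 183-fold range (edgeR adjusted p = 0.00195), with the lowest resting on 6 reads. Ndufa4 itself had a 1.49-fold range. In GFP- cells of model A the order was reversed, with Ndufa4l2 at 47.9 CPM and Ndufa4 at 41.4 CPM. Their merged exons are 1095 and 1381 bases long, so Ndufa4l2 was the higher one per length too in that library. Cox6b2 had 66 and 113 reads in D and 86 and 133 in B, against 9 and 7 in A (edgeR adjusted p = 0.00553), and Cox4i2 differed between models too, with 63 and 69 reads in E and 1 and 0 in C (edgeR adjusted p = 0.0148).

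**Figure D4:**
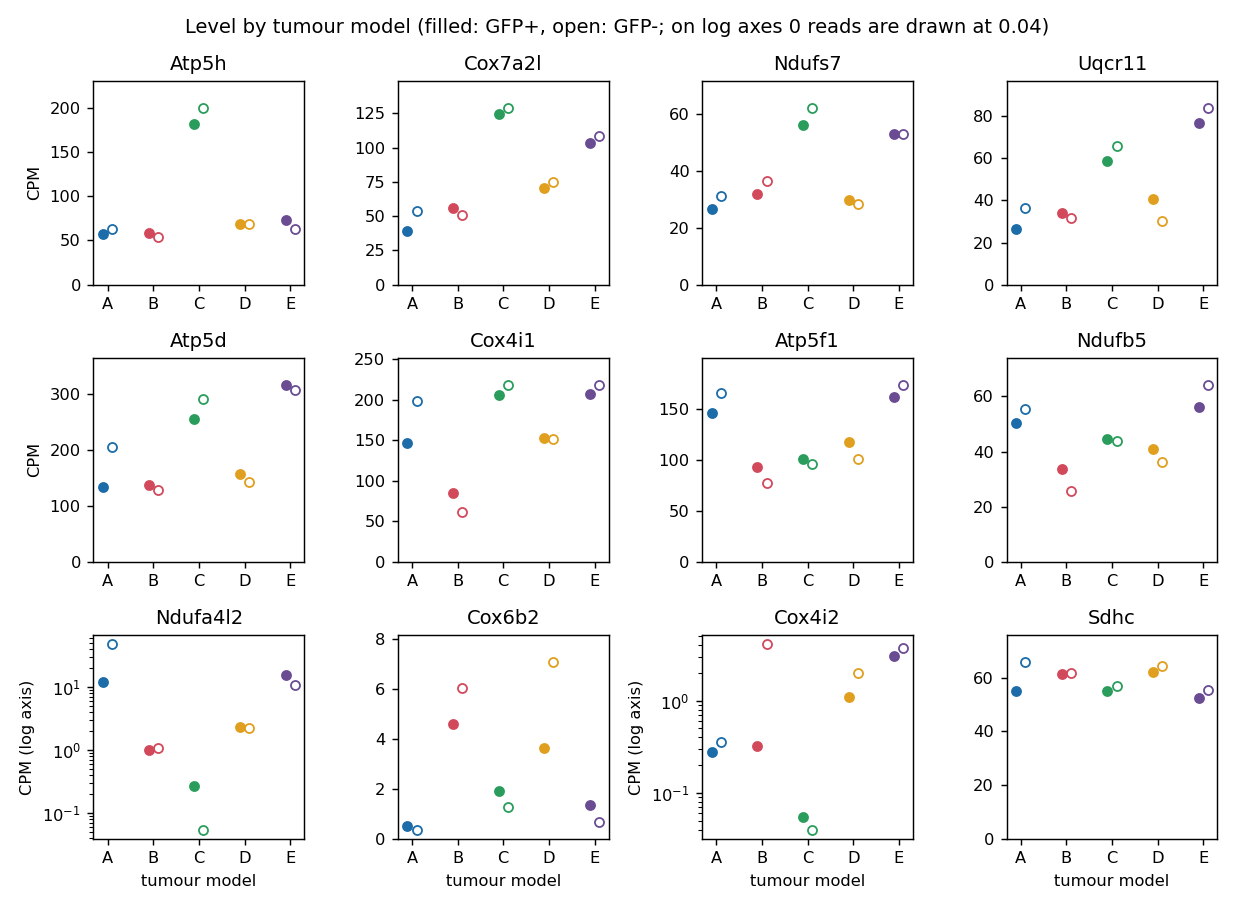
CPM of 12 nuclear members by tumour model, filled for GFP+ and open for GFP- cells, on linear axes from 0 except the log axes of Ndufa4l2 and Cox4i2, where 0 reads are drawn at 0.04. Atp5h stands apart in model C (182 and 200 CPM) and Cox4i1 in model B (84.5 and 60.8 CPM), and Sdhc shows a member with little difference between models.

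Counted over members, model E stood highest. On TMM-scaled log2 CPM, both of its libraries were above the other 8 for 27 of 79 nuclear members (11.7% of all genes were so placed). On the unscaled CPM printed here the count was 24 (9.91% of all genes). Members so placed on both scales include Atp5a1, Atp5b, Atp5c1 and Atp5d of the ATP synthase and Uqcrh, Uqcrfs1 and Uqcr11 of complex III. On the scaled values, model C had 5 nuclear members above (16.9% of all genes) and 8 below the other libraries (14.5% of all genes), and model B had 9 below (9.28% of all genes; 10 without the scaling), among them Cox4i1, Ndufa13, Ndufb5, Ndufb7 and Atp5f1. These counts were made after the model differences had been seen.

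Many of the members that differed between models did so together with the genes around them. For each nuclear member the model's mean log2 level was set against the median of the other models, and the same was done for the tested genes within 5 Mb. In model C, Atp5h was at 1.58 and the median of its 122 neighbours at 1.36. The chromosome 10 trio Atp5d, Ndufs7 and Uqcr11 was at 0.81, 0.92 and 0.88 in model C with neighbours at 0.52, 0.52 and 0.51, and at 1.03, 0.79 and 1.28 in model E with neighbours at 0.37 each. In model B, Cox4i1 was at -1.41 with neighbours at -0.71, Ndufb7 at -0.74 with -0.84, and Ndufa13 at -0.89 with -0.76; these 3 genes are on chromosome 8, whose 725 tested genes had a median of -0.73 in that model.

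Other members stood away from their neighbours. Cox7a2l was at 1.04 in model C with neighbours at -0.10 and at 0.81 in E with -0.04, and Uqcrh was at 0.74 in E with 0.08. Of the 30 members called between models, 24 had the same sign as the median of their neighbours in the model where they deviated most. For 17 of these 24 that median was also past 0.25 in size. The same count was not made for all tested genes, so whether such agreement is particular to the members cannot be told. Across the 79 nuclear members, Pearson's r between member and neighbours was 0.26, 0.39, 0.59, 0.20 and 0.50 for models A to E. These are correlations across genes of the same libraries, and many members share neighbours. DNA copy number was not measured here, and its part in these differences was not tested. The comparison with neighbours was chosen after the model differences had been seen.

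**Figure D5:**
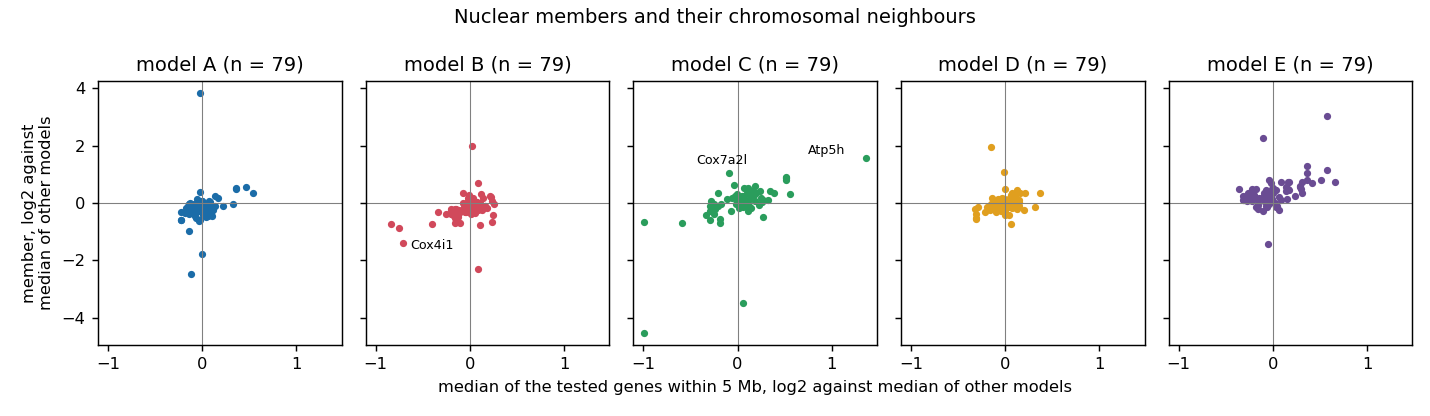
Each point is 1 of 79 nuclear members; the vertical axis is its log2 level in a model against the median of the other models, and the horizontal axis the median of the same quantity over tested genes within 5 Mb. Atp5h lies far to the upper right in model C (1.58 with neighbours at 1.36), Cox4i1 to the lower left in model B, and Cox7a2l is high in model C with neighbours near 0.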

How the data were processed

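RNA was measured in 10 libraries, GFP+ and GFP- cells of 5 tumour models. The authors deposited unnormalized read counts for each gene, made with STAR 2.4.2.8 on the mouse build mm10, per the submitters' processing notes. Annotation, kit, strand setting and read length: not given in the sources used here. Counts of the second strand setting entered all results, since they hold 96.9% to 97.1% of stranded gene reads, and 4 summary lines (21.3% to 24.3% of reads) were left out. Symbols, coordinates and merged exon lengths came from GENCODE vM21 (GRCm38), with 512 identifiers unmatched. Sequences of start sites came from RefSeq.

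Tests were edgeR's quasi-likelihood F-tests (edgeR 4.0.16 in R 4.3.3) after TMM scaling and filterByExpr (13986 genes), with population and tumour model in 1 fit, two-sided, with Benjamini-Hochberg adjustment over all tested genes and calls under 0.05. The model letter pairs the libraries of a model, per the labels; within a pair, deviations from the population mean had correlations of 0.628 to 0.867, and 5 of 5 pairs correlated best with each other. Pair differences used log2 CPM with a prior count of 2. Sums, medians and shares over members have no test. The counting depth of 15978673 to 22082207 gene reads per library sets the limits given for 0 reads. The pipeline was tested on simulated counts for GFP+ against GFP- with 13773 genes, where 80% of 2-fold and 100% of 4-fold changes were recovered and 3.23% of 186 calls were false. The changes were equal in 5 of 5 pairs and only in genes with a mean over 2 CPM. The simulated spread followed the trend over genes and had no part of its own for each gene. These recovery rates are thus for an easier setting than the measured pairs, whose directions differed.

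Alternatives were no block, RLE size factors, library totals, no mitochondrial genes, no filter, a stricter filter (1 CPM in 5 libraries), each model left out, DESeq2 1.42.0, limma voom (limma 3.58.1) with quality weights and unstranded counts. The genes described were named by rule: all mitochondrial genes, the 10 nuclear members with the smallest p between populations and between models, isoform partners, complex II, the highest and lowest member per length of each complex, and up to 3 genes of each other list by smallest p. Atp5b, Ndufb7, Ndufa13, Atp5s and the other genes listed with them were named after their values were seen, as were Nrf1, Ppargc1a and the motifs. Members and lists were chosen with earlier results of these data known.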

Additional observations from a re-analysis of the deposited data

Results flagged for a closer look

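Within each population the 5 libraries of 47 quantities were searched for 1 library far from the others (a gap over 0.71 of the whole range), 94 groups in all, and 6 groups had one. Chance gives about 1 in 20, so a count of this size is not a result in itself.

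Atp5h was at 182 CPM in GFP+ cells of model C, where the 4 other GFP+ libraries lay between 57.5 and 72.8 CPM, and at 200.3 CPM in GFP- cells of model C, where the others lay between 54.0 and 68.8 CPM. Ndufa4l2 was at 47.9 CPM in GFP- cells of model A, above 0.055 to 10.8 CPM in the other GFP- libraries. Cox6a1 was at 97.9 CPM in GFP+ cells of model C, below 139 to 153 CPM, and at 99.4 CPM in the GFP- cells of that model. Uqcrq, a small subunit of complex III, was at 25.1 CPM in GFP+ cells of model A, below 39.2 to 41.0 CPM. The summed level of the nuclear complex V members was 3209 CPM in GFP+ cells of model E, above 1855 to 2126 CPM.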

How the results depend on the processing

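Under every alternative run, 0 members were called between GFP+ and GFP- cells. Over all genes, 0 were called in the main test, 47 without a filter on low counts and 195 by DESeq2. Members lower in GFP+ at an unadjusted p under 0.05 numbered 0, against 2 without the filter (Cox4i2 and Atp5j) and 0 to 3 with 1 model left out (without C, Ndufb4, Atp5j and Atp5o; without E, Atp5j). Genes called between models numbered 7655, and 4038 (without C) to 7545 with 1 model left out, with 5404 without E. Members called between models numbered 30, and 17 (without E) to 39 (without A) with 1 model left out.

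Without the replicate block that pairs the libraries of a model, mt-Nd6 moved from 0.07 to -0.0014 on the log2 scale, and no call changed. Leaving out 1 model gave log2 differences of -0.70 to 0.31 for Ndufa4l2, -0.20 to 0.23 for mt-Nd6, -0.0011 to 0.15 for mt-Nd4 and -0.066 to 0.091 for mt-Nd5. The cause was not tested. Of 243 values for 18 named genes under alternatives, 237 kept their direction and their side of the threshold and 6 changed sign.

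Depth limits the members at few reads in some libraries (Cox4i2, Cox6b2, and Ndufa4l2 in models B and C). For 6 mitochondrial genes at 0 to 3 reads a library no level is given, and the part of reads with several genomic positions in this was not tested. Counts of members set apart by model were repeated on unscaled CPM, an alternative chosen after seeing the data. A single pair has no replicate.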

Other observations

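The mitochondrial rRNA genes varied more between libraries than the mitochondrial protein-coding genes. The summed level of mt-Rnr1 and mt-Rnr2 was 412, 412, 813, 758 and 2389 CPM in the GFP+ libraries of models A to E and 842, 492, 654, 1089 and 1669 CPM in the GFP- libraries, while the 13 protein-coding genes summed to between 21942 and 36098 CPM. GFP+ was higher in 2 of 5 pairs, and the groups overlapped.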
